A study of Vitis vinifera with 24 samples.

Results

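The experiment described here is a comparison of 2 differences: how far embryogenic callus (EC) differed from non-embryogenic callus (NEC) in the grapevine (Vitis vinifera) cultivar Sangiovese (SG), set against the same difference in Cabernet Sauvignon (CS). It uses 12 of the 24 libraries of the series, 3 each of SG EC, SG NEC, CS EC and CS NEC, chosen by their labels. Of the 29971 loci in the table, 20251 had at least 1 FPKM (fragments mapped, scaled to transcript length and to the size of the library) in 3 or more of these libraries and were tested. The labels call SG highly and CS poorly competent for embryogenesis. All 4 groups came from anthers kept in the dark at 26 °C, for 3 months on an induction medium with the auxin 2,4-D at 4.5 µM and the cytokinin BAP at 8.9 µM. They then spent 1 month on a proliferation medium with the auxins NOA at 10 µM and IAA at 20 µM, BAP at 1 µM and 2.5% activated charcoal. At 4 months, calli were sorted into EC and NEC by eye under a stereomicroscope, so each is a mixed tissue and not 1 cell type. Whether replicates came from separate plants or cultures is not given, and adjusted p values measure only the spread between these libraries. In bulk tissue, fewer cells of a type and less RNA per cell cannot be told apart.

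In somatic embryogenesis, body cells of a cultured tissue return to a dividing state under auxin and then form embryos without fertilisation. In grapevine the process starts from callus on anthers or other flower parts, and cultivars are known to differ widely in how readily they respond. Callus that does not form embryos often makes defence proteins and phenolic compounds. The locus identifiers come without gene names, and 0 of 29971 matched the reference gene table. Gene families are therefore named only where published locus assignments place whole clusters or sets of loci in them. These identities rest on those assignments and not on the files, and other loci are given by identifier alone.

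The libraries summed to 765507 to 886037 FPKM, and the groups did not overlap in this total. The sums were 765507 to 780950 in SG EC and 839064 to 858259 in SG NEC. In CS they were 791724 to 814622 in EC and 878015 to 886037 in NEC. Loci at 1 FPKM or more numbered 17545 to 18266 in SG EC, 17443 to 17708 in SG NEC, 18383 to 18536 in CS EC and 17318 to 17538 in CS NEC. Replicate 3 of each EC group was not clearly separate from the other replicates. Among loci that differed at least 2-fold between replicates 1 and 2, on log2(FPKM + 1), replicate 3 lay between them at 96% of 525 loci in SG EC and at 97.1% of 561 in CS EC. Its place between them was nearly constant from locus to locus: its value was that of a mixture with a share of replicate 1 of 0.344 (quartiles 0.305 and 0.389) in SG EC and of 0.661 (quartiles 0.611 and 0.705) in CS EC. In SG NEC the share was 0.974 (quartiles 0.873 and 1.02), so replicate 3 lay close to replicate 1 at such loci. In CS NEC it was 0.573, with quartiles far apart at 0.208 and 0.991. Replicate 3 lay between the others at 64.2% of 190 such loci in SG NEC and 68.9% of 190 in CS NEC. Replicate 3 also lay between the others at 98.2% of 1086 such loci in SG anthers and 89.9% of 199 in CS anthers. Whether replicate 3 was made from the material of replicates 1 and 2 was not tested, and counts are also given without replicate 3 of both EC groups. SG EC replicate 1 carried more NEC signal than its group: 116 loci chosen in CS, at 50 FPKM or more in NEC and at least 32 times lower in EC, summed to 2257, 240.2 and 884.9 FPKM in SG EC replicates 1, 2 and 3, against 51940 to 56290 FPKM in SG NEC. For the 164 loci chosen the other way, SG EC summed to 49500 to 51960 FPKM, and SG NEC to 1539, 4185 and 1675 FPKM, so that NEC replicate 2 carried the most EC signal.

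The EC to NEC difference was itself different between the cultivars over much of the table. By limma on log2(FPKM + 1) with Benjamini-Hochberg adjustment, 9372 loci, 46.3% of those tested, had an adjusted p under 0.05 for the interaction, that is for (SG EC minus SG NEC) minus (CS EC minus CS NEC). The interaction was positive at 2951 loci (14.6%) and negative at 6421 (31.7%). An interaction of 1 or more in size on the log2 scale was called at 3177 loci, 1263 positive (6.24%) and 1914 negative (9.45%). A positive value means that EC stood higher, relative to NEC, in SG than in CS. Without replicate 3 of both EC groups, 2042 were positive and 4228 negative. At the larger size 1107 and 1585 were called without them, and 2690 of the 3177 loci were still called with the same sign.

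The balance of signs depended on the scaling. The median interaction over all tested loci was -0.175, and after median-of-ratios scaling it was -0.00135. That scaling gave 4449 positive and 4153 negative loci, or 51.7% positive against 31.5% as deposited, and 1565 and 1542 at a size of 1 or more. The mean scaling factors were 1.08 in SG EC, 0.927 in SG NEC, 1.16 in CS EC and 0.86 in CS NEC. The excess of negative interactions was thus present on the deposited scale, whose median is below 0, and absent after median-of-ratios scaling. Of the 3177 loci, 3079 were also called with the same sign after median-of-ratios scaling. Equal sums left the balance at 2954 positive and 6174 negative.

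Within SG, EC and NEC differed at 80.8% of tested loci, 47.6% higher and 33.2% lower in EC, and at a size of 1 or more 23.3% were higher and 17.5% lower. Within CS they differed at 82.2%, 53.4% higher and 28.8% lower in EC, and at that size 27.6% were higher and 15.2% lower. Between the cultivars, SG EC differed from CS EC at 51.1% of loci, 19.1% higher and 32% lower in SG, and at that size 4.63% and 8.21%. SG NEC differed from CS NEC at 54.1%, 32.2% higher and 21.9% lower in SG, and at that size 6.37% and 6.87%. After median-of-ratios scaling the share of called loci that were higher was 50.6% within SG, 50.3% within CS, 48.7% between EC of the cultivars and 48.8% between NEC, against 58.9%, 64.9%, 37.3% and 59.5% as deposited.

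**Figure D1:**
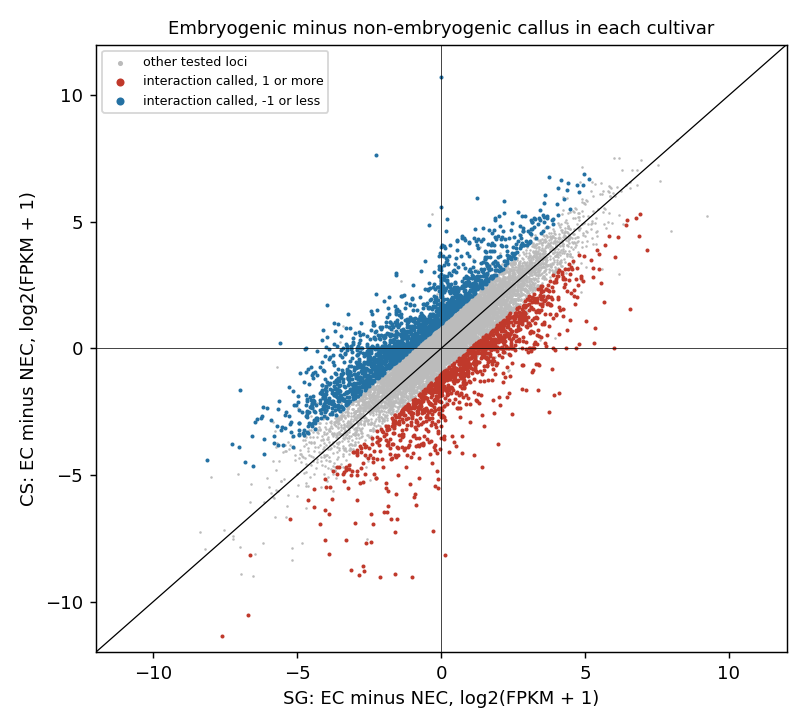
Change of EC minus NEC in SG (x axis) against that in CS (y axis) for 20251 loci, on the log2(FPKM + 1) scale. Most loci lie along the diagonal line of equal change, the 1263 loci with a called interaction of 1 or more lie below it in red, and the 1914 with one of -1 or less lie above it in blue.

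Interactions of size 1 or more came about in 10 main ways, counted by the calls within each cultivar. The commonest was a fall in EC of both cultivars that went further in SG, at 538 loci (16.9% of 3177). A further 420 were lower in EC of SG and not called in CS, 364 were higher in EC of both and more so in CS, and 352 were higher in CS and not called in SG. Among positive interactions, 310 loci were higher in EC of both and more so in SG, and 309 were lower in both and more so in CS. Another 232 were higher in SG and not called in CS, and 225 were lower in CS and not called in SG. Opposite changes were called at 187 loci higher in EC of SG and lower in EC of CS, and at 234 lower in SG and higher in CS. At 6 loci neither cultivar was called. Without replicate 3 of both EC groups, 381 loci were lower in both and more so in SG, fewer than the 449 lower in SG and not called in CS. Without SG EC replicate 1 and SG NEC replicate 2, they numbered 765 and 440. After median-of-ratios scaling the group lower in SG and higher in CS held 157 loci and that higher in both and more so in CS 234.

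**Figure D2:**
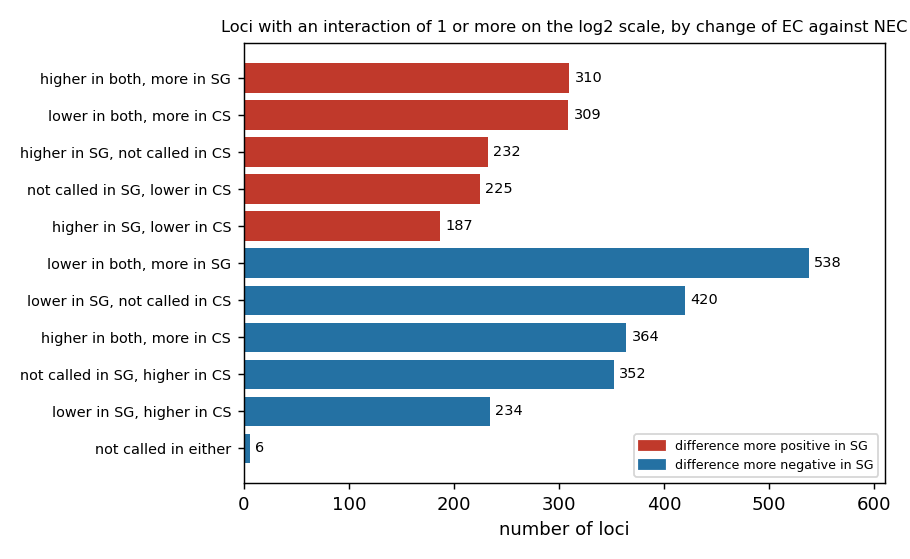
Number of loci (x axis) with a called interaction of 1 or more in size, by how EC compared with NEC in each cultivar (rows). Red bars are positive interactions and blue bars negative ones, and the longest bar is the 538 loci lower in EC of both cultivars and more so in SG.

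The cultivars stood apart in either callus type. Among the 1263 positive interactions, SG and CS were further apart in EC at 498 loci and in NEC at 765, with 647 loci called higher in SG EC than in CS EC and 845 called lower in SG NEC than in CS NEC. Among the 1914 negative ones the gap was larger in EC at 1040 and in NEC at 874, with 1308 loci called lower in SG EC than in CS EC and 1121 called higher in SG NEC than in CS NEC. The gap was larger in EC at 40 of 309 loci lower in both and more so in CS, at 27 of 225 lower in CS and not called in SG, and at 62 of 187 higher in SG and lower in CS. At the loci lower in both and more so in SG it was larger in EC at 284 of 538. The gap was larger in EC at 170 of 232 loci higher in SG and not called in CS. At those higher in CS and not called in SG this held at 249 of 352. Of loci higher in both, it held at 199 of 310 with the larger rise in SG and 200 of 364 with it in CS. For loci lower in SG, it held at 169 of 420 not called in CS and at 135 of 234 higher in CS. Over all tested loci it was larger in EC at 47.5%.

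Some loci were abundant in EC of SG and at or near 0 in the other 3 groups. VIT_14s0083g00680 had 33, 102 and 73.3 FPKM in the SG EC libraries and was listed at 0 in all 3 libraries of SG NEC, CS EC and CS NEC. VIT_00s0256g00030 had 40.8, 68.5 and 57.5 FPKM in SG EC, 0.253, 0.858 and 0.189 in SG NEC, 0.241, 0.487 and 0.224 in CS EC, and 0.108, 0.158 and 0.0857 in CS NEC. Every SG EC library exceeded every SG NEC, CS EC and CS NEC library at both. VIT_00s0256g00030 was not limited to SG EC in the series, with 42.8, 80 and 61.8 FPKM in SG anthers and 5.61, 7.51 and 6.94 in CS anthers. VIT_13s0147g00080 averaged 26.4 ± 2.81 FPKM in SG EC and 0.0688 ± 0.0953 in SG NEC (SD, n = 3), and was listed at 0 in CS EC and CS NEC. The limma adjusted p of the interaction was 7.18e-06, 2e-06 and 1.82e-08 for these loci. Where a group is listed at 0, the size of an interaction depends on the pseudocount.

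Other loci rose in EC of both cultivars and far more in SG. VIT_04s0008g02860 had 1210, 1770 and 1540 FPKM in SG EC and 67.2, 68.3 and 63.8 in SG NEC, against 239, 224 and 243 in CS EC and 105, 97.9 and 121 in CS NEC. The groups did not overlap within either cultivar, and the change was 4.46 in SG and 1.12 in CS on the log2 scale, with an adjusted p of 1.1e-06 for the interaction in limma. VIT_12s0059g00760 averaged 351.5 ± 42.9 FPKM in SG EC and 6.08 ± 1.88 in SG NEC, and 114 ± 3.26 in CS EC and 31.4 ± 4.41 in CS NEC. VIT_11s0016g05330 averaged 357.5 ± 90.8 FPKM in SG EC and 1.48 ± 0.347 in SG NEC, while CS EC was uneven, with 14.5, 270 and 99.8 FPKM in CS EC. Its limma adjusted p was 0.032, and it lost its call when any 1 of 7 libraries was left out. Without replicate 3 of both EC groups its limma adjusted p was 0.0854.

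The reverse, a rise in EC called in CS alone or larger there, had its largest value at VIT_18s0001g06540. It had 1390, 2540 and 1390 FPKM in CS EC and was listed at 0 in all 9 other libraries of the comparison. In CS day 40 callus VIT_18s0001g06540 had 0, 1470 and 0 FPKM, so its libraries of 1 group did not share a level, and it was listed at 0 in every SG library of the series. VIT_18s0166g00060 had 63.4, 78 and 21.2 FPKM in CS EC and was listed at 0 in the other 3 groups, although SG anthers had 20.6, 201 and 146 FPKM and CS anthers 26.4, 20.8 and 33.5. VIT_17s0000g02700 averaged 4.55 ± 2.23 FPKM in SG EC and 6.75 ± 4.46 in SG NEC, which overlapped, and 60.9 ± 23.8 in CS EC and 1.01 ± 0.425 in CS NEC. Of loci higher in both, VIT_13s0074g00390 had 136, 144 and 138 FPKM in SG EC and 68.5, 104 and 72.3 in SG NEC, and 191, 193 and 198 in CS EC and 13, 4.05 and 11.3 in CS NEC. The cultivars were close in EC there and far apart in NEC. VIT_18s0001g07640 averaged 15.7 ± 6.78 FPKM in SG EC and 8.24 ± 3.29 in SG NEC, and 26.6 ± 7.13 in CS EC and 0.377 ± 0.145 in CS NEC. Its SG EC libraries, at 22.9, 9.48 and 14.7 FPKM, overlapped those of SG NEC, at 6.02, 12 and 6.68. VIT_01s0011g04580 averaged 22.7 ± 20.2 FPKM in SG EC and 2.76 ± 0.407 in SG NEC, and 90.6 ± 30.9 in CS EC and 0.728 ± 1.06 in CS NEC, with SG EC libraries at 44.3, 4.15 and 19.8.

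Loci abundant in NEC of CS and nearly absent in NEC of SG made the largest positive interactions among the named loci. VIT_08s0007g07770 had 0.282, 0 and 0.0317 FPKM in SG EC and 3.91, 3.75 and 3.58 in SG NEC, against 0.21, 0.0821 and 0.179 in CS EC and 561, 721 and 534 in CS NEC. Its change was -2.11 in SG and -9.02 in CS on the log2 scale, with an adjusted p of 1.41e-08 for the interaction in limma. VIT_08s0007g07760 averaged 0.913 ± 1.12 FPKM in SG EC and 4.22 ± 0.763 in SG NEC, and 0.354 ± 0.107 in CS EC and 675 ± 205 in CS NEC. VIT_08s0007g08330 averaged 0.37 ± 0.431 FPKM in SG EC and 7.44 ± 0.999 in SG NEC, and 0.148 ± 0.077 in CS EC and 524 ± 125 in CS NEC. VIT_08s0007g07780 had 132, 194 and 185 FPKM in CS NEC and 0.296 FPKM or less in every library of the other groups. VIT_01s0011g05110 had 754, 2440 and 656 FPKM in CS NEC, with a mean of 1.56 ± 1.38 in SG EC, 3.75 ± 1.07 in SG NEC and 1.12 ± 0.807 in CS EC. In day 40 callus the order of the cultivars at VIT_08s0007g07770 was the other way, with 5.9, 5.48 and 6.36 FPKM in SG and 0.833, 1.39 and 0.679 in CS, and likewise at VIT_08s0007g07760 and VIT_08s0007g07780. It was the same as in NEC at VIT_08s0007g08330, with 4.51, 4.2 and 3.94 FPKM in SG and 11.5, 10.7 and 10.5 in CS, and at VIT_01s0011g05110, with 1.16, 1.4 and 0.791 in SG and 6.79, 7.95 and 8.15 in CS.

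Other loci were abundant in NEC of SG and fell further in EC of SG than in EC of CS. The cultivars stood further apart in NEC at VIT_14s0108g00240, VIT_14s0108g00200 and VIT_01s0026g02370. They stood further apart in EC at VIT_06s0004g05760, VIT_01s0026g02400 and VIT_13s0019g01380. There SG minus CS on the log2 scale was -3.27, -3.18 and -2.93 in EC, against 1.42, 0.707 and 0.999 in NEC. The NEC difference at VIT_01s0026g02400 was not called. VIT_14s0108g00240 had 0.139, 0.0893 and 0.0706 FPKM in SG EC and 29.3, 25.6 and 29.4 in SG NEC, against 0.133, 0.06 and 0.0661 in CS EC and 0, 0.0706 and 0.206 in CS NEC. Its neighbour in number VIT_14s0108g00200 averaged 0.959 ± 1.66 FPKM in SG EC and 74.9 ± 5.23 in SG NEC, and 0.193 ± 0.333 in CS EC, and was listed at 0 in CS NEC. Both were present in SG day 40 callus, at 25 and 88.3 FPKM, and listed at 0 in CS day 40 callus. VIT_06s0004g05760 had 1.41, 0 and 0.245 FPKM in SG EC and 41.7, 28.9 and 39.1 in SG NEC, while CS EC, at 5.81, 29.2 and 12.1, overlapped CS NEC, at 12, 15.8 and 11.3. Among loci lower in EC of both, VIT_01s0026g02370 had 9.48, 1.05 and 3.84 FPKM in SG EC and 711, 418 and 734 in SG NEC, against 8.68, 17.7 and 9.94 in CS EC and 45.4, 27.9 and 45.6 in CS NEC. VIT_01s0026g02400, close to it in number, averaged 27.7 ± 18.6 FPKM in SG EC and 1875 ± 548 in SG NEC, and 232 ± 76.6 in CS EC and 1136 ± 275 in CS NEC. VIT_13s0019g01380 averaged 0.397 ± 0.603 FPKM in SG EC and 40.5 ± 14.6 in SG NEC, and 9.16 ± 1.58 in CS EC and 18.8 ± 1.25 in CS NEC. At these last 3 loci and at VIT_06s0004g05760, SG EC replicate 1 was the highest library of its group, replicate 3 came next and replicate 2 was the lowest, the same order as in the summed NEC signal. The part of that signal in the interaction was not tested. Without SG EC replicate 1 and SG NEC replicate 2 these loci stayed called with the same sign. At these loci those were the highest SG EC and the lowest SG NEC library. Leaving them out could only make the interaction more negative, so the sign was bound to stay.

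At some loci the cultivars moved in opposite directions. VIT_19s0090g01360 had 144, 150 and 156 FPKM in SG EC and 7.34, 10.6 and 6.32 in SG NEC, against 19.2, 40.5 and 26.6 in CS EC and 84.5, 67.1 and 158 in CS NEC. EC was the higher in every SG library and the lower in every CS library, with changes of 4.08 in SG and -1.77 in CS and an adjusted p of 1.22e-05 for the interaction in limma. VIT_12s0028g03120 averaged 6.79 ± 1.28 FPKM in SG EC and 1.89 ± 0.308 in SG NEC, and 2.32 ± 1.33 in CS EC and 84.5 ± 37.5 in CS NEC. VIT_11s0065g00050 averaged 12.6 ± 2.13 FPKM in SG EC, was listed at 0 in SG NEC, and had 3.78, 0 and 3.74 FPKM in CS EC and 30.3, 16.6 and 6.6 in CS NEC. The other way round, VIT_07s0129g00580 had 1.21, 0 and 0.62 FPKM in SG EC and 30.8, 18.4 and 29.5 in SG NEC, against 51.3, 32.9 and 41.9 in CS EC and 26.9, 25.5 and 21.6 in CS NEC. VIT_14s0128g00670 averaged 0.0831 ± 0.0301 FPKM in SG EC and 16.9 ± 6.63 in SG NEC. Its CS EC libraries had 4.65, 29.8 and 13.4 FPKM and its CS NEC libraries 2.6, 4.8 and 2.48, which overlapped. VIT_06s0004g02020 averaged 0.0337 ± 0.0583 FPKM in SG EC and 13.2 ± 4.61 in SG NEC, and 5.57 ± 3.03 in CS EC and 2.44 ± 1.97 in CS NEC, where libraries also overlapped.

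**Figure D3:**
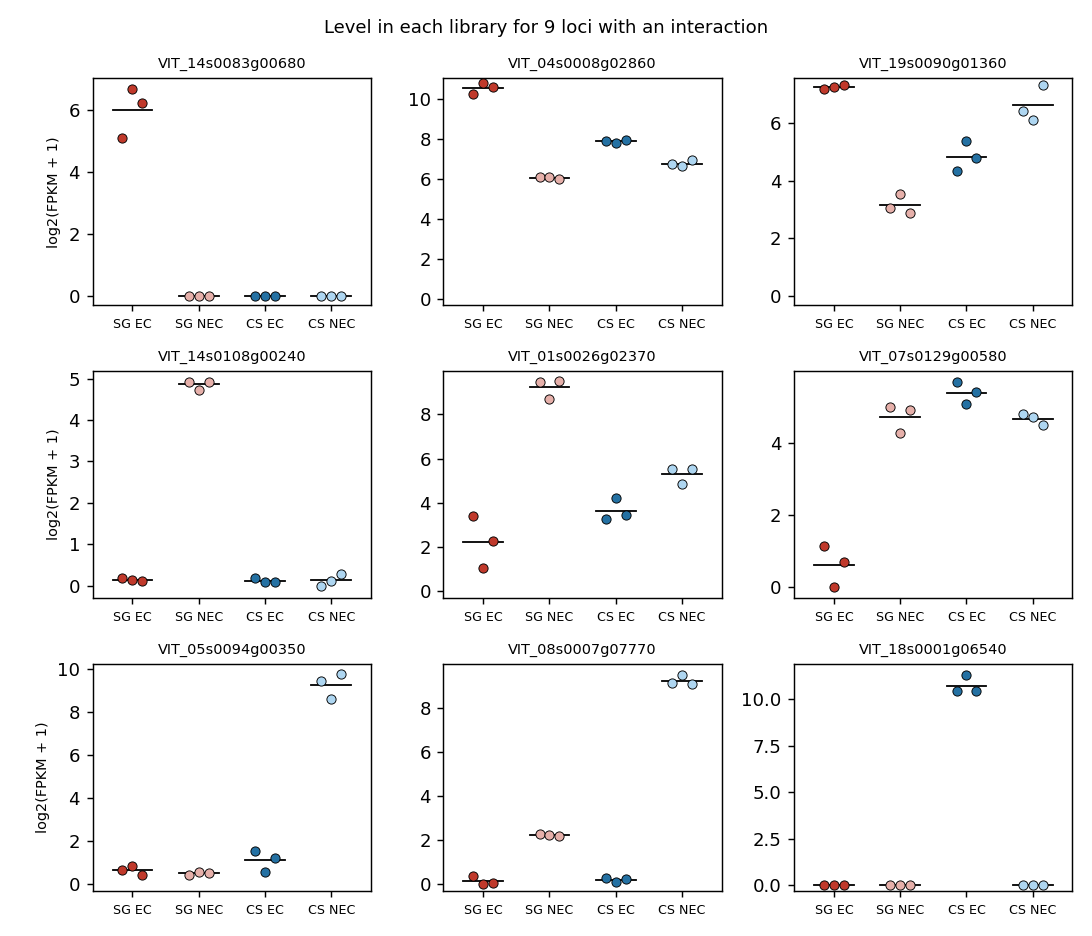
Level of 9 loci as log2(FPKM + 1) (y axis) in each of the 3 libraries (points) of SG EC, SG NEC, CS EC and CS NEC (x axis), with group means as lines and a y axis of its own for each locus. The middle row shows loci far lower in SG EC than in SG NEC, such as VIT_14s0108g00240 at 25.6 to 29.4 FPKM in SG NEC. The top row shows loci high in SG EC, such as VIT_04s0008g02860 at 1210 to 1770 FPKM, and the bottom row loci high in CS NEC or CS EC, such as VIT_18s0001g06540 at 1390 to 2540 FPKM.

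Flavonoid enzymes, which build anthocyanins, flavonols and proanthocyanidins from phenylpropanoid precursors, had almost uniformly negative interactions. Of the 9 loci assigned to the early steps (chalcone synthase, chalcone isomerase, flavanone 3-hydroxylase and flavonoid 3'-hydroxylase), 8 had a called negative interaction and 0 a positive one, with a median of -2.45, against -0.175 over all tested loci, of which 31.7% were called negative. Of the 6 loci assigned to later steps (dihydroflavonol reductase, anthocyanidin synthase, the reductases of proanthocyanidin synthesis and anthocyanin glucosyltransferase), 5 were tested and 4 had a negative interaction, with a median of -1.54. After median-of-ratios scaling these counts were 7 and 4, and without replicate 3 of both EC groups 7 and 3. The early loci summed to 370.1, 324.1 and 336.9 FPKM in SG EC and 1749, 1573 and 1731 in SG NEC, against 665.6, 679.5 and 690.2 in CS EC and 738.2, 395.1 and 888.3 in CS NEC. The late loci summed to 105.5, 121.1 and 113.3 FPKM in SG EC and 521.8, 470.5 and 511.9 in SG NEC, against 174.6, 257.2 and 199.9 in CS EC and 273, 187.6 and 248.4 in CS NEC. Early enzyme signal was thus lower in EC than in NEC in every SG library, while in CS the EC and NEC libraries overlapped. All 9 early loci were called higher in SG NEC than in CS NEC, and 7 were called lower in SG EC than in CS EC, so the cultivars stood apart in both callus types. In day 40 callus the early loci summed to 3459 ± 37.6 FPKM in SG and 6352 ± 52.1 in CS, the reverse of the order in NEC. Within SG 6 of the 9 fell and 0 rose, where 33.2% of all tested loci fell and 47.6% rose. Within CS 6 rose and 1 fell, where 53.4% rose and 28.8% fell. VIT_13s0067g02870 had 115, 92.3 and 99.1 FPKM in SG EC and 302, 273 and 296 in SG NEC, against 222, 160 and 208 in CS EC and 119, 74 and 116 in CS NEC. VIT_14s0068g00920 averaged 51.4 ± 2.21 FPKM in SG EC and 71.5 ± 7.78 in SG NEC, and 100.3 ± 11.3 in CS EC and 20.4 ± 8.54 in CS NEC. Of the late loci, VIT_02s0025g04720 had 32.3, 29 and 28.8 FPKM in SG EC and 318, 282 and 304 in SG NEC, while CS EC, at 56.7, 104 and 73.2, overlapped CS NEC, at 87.4, 55.5 and 71.4. Its adjusted p for the interaction in limma was 1.98e-05. VIT_18s0001g12800 averaged 20 ± 2.02 FPKM in SG EC and 147 ± 8.86 in SG NEC, and 65.2 ± 6.69 in CS EC and 144 ± 20.7 in CS NEC, and there the cultivars stood apart in EC.

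The MYB and bHLH transcription factors assigned to control of flavonoid and stilbene synthesis were divided. Of 10 loci, 8 were tested, 4 had a negative and 2 a positive interaction, with a median of -1.15, where 31.7% and 14.6% of all tested loci did. The 2 positive ones lie next to each other on chromosome 2 by their numbers and were far higher in NEC of CS than in the other 3 groups. VIT_02s0033g00390 had 0.188, 0 and 0 FPKM in SG EC and 2.37, 3.76 and 2.66 in SG NEC, against 0, 0.0547 and 0 in CS EC and 80.2, 114 and 77.5 in CS NEC. VIT_02s0033g00410 was listed at 0 in SG EC, averaged 0.429 ± 0.274 FPKM in SG NEC and 0.0194 ± 0.0337 in CS EC, and had 8.35, 15.8 and 10.8 in CS NEC. Their adjusted p in limma was 9.91e-07 and 2.8e-05. VIT_06s0004g00570 went the other way, with 2.7, 1.36 and 2.56 FPKM in SG EC and 33.4, 32.1 and 33.7 in SG NEC, against 2.81, 3.75 and 3.67 in CS EC and 10.1, 5.93 and 8.06 in CS NEC.

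Clusters assigned to pathogenesis-related (PR) proteins, which plants make in defence against microbes and under stress, summed to far more in NEC than in EC of both cultivars. The PR1 range on chromosome 3 summed to 27.71, 24.45 and 30.51 FPKM in SG EC and 375, 245 and 374.3 in SG NEC, against 35.51, 23.89 and 33.27 in CS EC and 5573, 5891 and 5683 in CS NEC. Most of the CS NEC sum came from VIT_03s0088g00700, at 0.777 FPKM in SG EC, 247 in SG NEC, 27.7 in CS EC and 5234 ± 195 in CS NEC, whose change was -7.22 in SG and -7.54 in CS (interaction 0.32 ± 0.49, SE, limma adjusted p 0.619). This locus was singled out after its values were seen. The order of the cultivars was the other way in day 40 callus, where the range summed to 536 ± 25.8 FPKM in SG and 77.4 ± 2.27 in CS. Of 7 tested PR1 loci 4 had a positive and 0 a negative interaction, with 14.6% of all loci positive. VIT_03s0088g00710 had 0.075, 0 and 0.0767 FPKM in SG EC and 5.26, 4.49 and 6.82 in SG NEC, against 0, 0.199 and 0 in CS EC and 289, 222 and 164 in CS NEC, with an adjusted p of 1.3e-06. VIT_03s0088g00910 was listed at 0 in SG EC and averaged 5.33 ± 0.945 FPKM in SG NEC, 0.068 ± 0.0637 in CS EC and 12.4 ± 3.64 in CS NEC. Without replicate 3 of both EC groups 2 PR1 loci were called.

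The class IV chitinase range on chromosome 5, whose enzymes cut the chitin of fungal walls, held the largest positive interaction among loci that passed the naming rule. VIT_05s0094g00350 had 0.593, 0.804 and 0.364 FPKM in SG EC and 0.369, 0.506 and 0.455 in SG NEC, against 1.92, 0.488 and 1.38 in CS EC and 710, 400 and 874 in CS NEC. It averaged 0.849 FPKM in SG day 40 callus and 766 in CS day 40 callus. Its neighbour VIT_05s0094g00340 was the main member in both cultivars, at 171.6 FPKM in SG EC, 10200 in SG NEC, 103.6 in CS EC and 23940 in CS NEC, with an interaction of 0.84 ± 1.36 (SE, limma adjusted p 0.637), and it too was singled out after its values were seen. These chitinase loci are close copies that may share reads, and so are members of the other clusters, so values of single members are uncertain. Of 13 tested, 6 had a negative and 2 a positive interaction, with a median of -1.24, where 31.7% and 14.6% of all tested loci did. Without SG EC replicate 2, 4 were positive, and without replicate 3 of both EC groups 1 was. VIT_05s0094g00210 was listed at 0 in all SG EC and SG NEC libraries and averaged 53.6 ± 3.36 FPKM in CS EC and 11.1 ± 3.08 in CS NEC.

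PR10 proteins, a further defence family, showed 5 negative and 1 positive interaction among 15 tested loci of their chromosome 5 range. Of all tested loci 31.7% were negative and 14.6% positive, so these counts are near the background. The median was -1.22, against -0.175 over all tested loci. Uncalled members could have large standard errors, as VIT_05s0077g01570, singled out after its values were seen, at -1.97 ± 1.18 (SE). The lack of a call there does not show a small interaction. VIT_05s0077g01650 had 8.83, 1.2 and 3.33 FPKM in SG EC and 719, 652 and 751 in SG NEC, against 21.9, 59.6 and 37.1 in CS EC and 564, 440 and 544 in CS NEC, with a limma adjusted p of 0.00202. VIT_05s0077g01690 averaged 0.149 ± 0.0646 FPKM in SG EC and 1.13 ± 0.512 in SG NEC, and 0.0455 ± 0.0787 in CS EC and 14.8 ± 6.04 in CS NEC. Without replicate 3 of both EC groups 2 were negative and without SG EC replicate 1 there were 8, and without CS NEC replicate 2 or CS EC replicate 2 there were 2 positive. The thaumatin-like range on chromosome 2 had 3 negative and 2 positive interactions among 12 tested loci, with a median of -0.331, also near the background. Without SG EC replicate 1, 5 were negative. VIT_02s0025g04290 averaged 1.17 ± 1.02 FPKM in SG EC and 183 ± 5.23 in SG NEC, and 7.82 ± 1.66 in CS EC and 218 ± 16.5 in CS NEC. VIT_02s0025g04250 averaged 0.254 ± 0.293 FPKM in SG EC and 1.31 ± 0.636 in SG NEC, and 0.764 ± 0.231 in CS EC and 16 ± 7.57 in CS NEC. In both ranges the sum in SG EC was highest in replicate 1, at 1902, 129.3 and 734.6 FPKM for PR10 and 290.7, 27.98 and 112.1 for thaumatin-like loci, the order of the NEC signal given above.

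Stilbene synthase loci make enzymes whose products include resveratrol, and phenylalanine ammonia-lyase is the entry step of the phenylpropanoid pathway. The stilbene synthase loci and the chromosome 16 cluster of phenylalanine ammonia-lyase had few or no called interactions. Of all tested loci, 14.6% were called positive and 31.7% negative. Standard errors could be large, as at VIT_16s0100g01200, with an uncalled interaction of -1.58 ± 1.18 (SE). The lack of a call thus does not show a small interaction. In the stilbene synthase range on chromosome 16, 1 of 25 tested loci was positive, VIT_16s0100g01130, and 1 negative, VIT_16s0100g01100, and 0 were called without replicate 3 of both EC groups. The chromosome 10 range had 1 positive locus of 2 tested, VIT_10s0042g00850, listed at 0 in SG EC, SG NEC and CS EC and at 1.08, 3.62 and 13.1 FPKM in CS NEC, and 0 without those replicates. CS NEC replicate 3 stood far above its group in these loci: the chromosome 16 stilbene synthase range summed to 445.2, 413.7 and 2951 FPKM in CS NEC. In the phenylalanine ammonia-lyase range 0 of 6 tested loci were called by limma and 0 had an unadjusted p under 0.05, and without CS NEC replicate 3, which held 144.3 FPKM of that range against 10.86 and 14.72 in the other CS NEC libraries, 3 were negative. Without it 2 of the chromosome 16 stilbene synthase loci were positive and 4 negative.

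Floral organ MADS-box transcription factors, which set the identity of flower parts, gave 2 positive and 2 negative interactions among 8 tested of 12 loci, where 14.6% of all tested loci were positive and 31.7% negative, and 1 negative one without replicate 3 of both EC groups. The largest was negative, at VIT_18s0001g01760, with 2.14, 0.74 and 1.14 FPKM in SG EC and 17, 27.5 and 15.9 in SG NEC. Its CS EC libraries, at 46.5, 9.91 and 32.2, overlapped those of CS NEC, at 9.68, 17.2 and 15.4, and its interaction was -3.98 with a limma adjusted p of 0.00107. VIT_14s0083g01050 had 49.4, 61.1 and 55.5 FPKM in SG EC and 51.9, 50.8 and 52.3 in SG NEC, against 1.71, 0.4 and 1.46 in CS EC and 16.6, 28.5 and 22.2 in CS NEC, so its libraries overlapped in SG and stood apart in CS. VIT_12s0142g00360 averaged 9.97 ± 0.668 FPKM in SG EC and 77.2 ± 4.75 in SG NEC, and 2.65 ± 1.08 in CS EC and 142 ± 22.9 in CS NEC. Lipoxygenases, which oxidise fatty acids on the way to jasmonate and volatile compounds, had 2 positive and 2 negative interactions among 8 tested of 11 loci, again beside 14.6% and 31.7% of all tested loci. Of the positive ones, VIT_06s0004g01460 lost its call when any 1 of 10 libraries was left out, and without replicate 3 of both EC groups 1 was positive. VIT_06s0004g01510 averaged 1.44 ± 0.208 FPKM in SG EC and 21.8 ± 2.21 in SG NEC, and 0.51 ± 0.0578 in CS EC and 70.3 ± 21.8 in CS NEC. VIT_14s0128g00790 averaged 0.71 ± 0.198 FPKM in SG EC and 5.22 ± 0.555 in SG NEC, and 2.19 ± 0.167 in CS EC and 2.7 ± 0.89 in CS NEC.

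**Figure D4:**
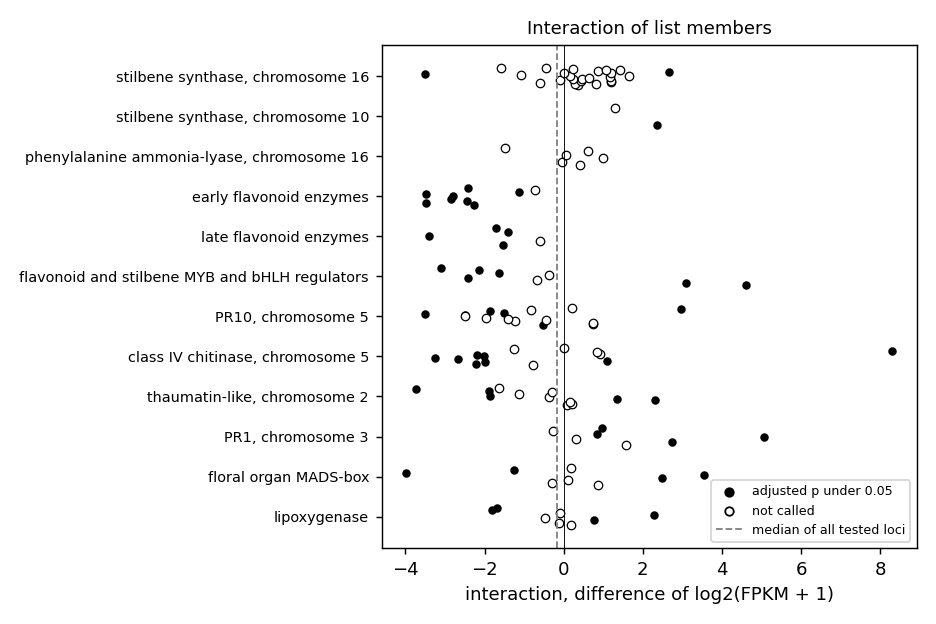
Interaction of each tested member (points) of 12 sets of loci (rows) as a difference of log2(FPKM + 1) (x axis). Filled points had an adjusted p under 0.05, the dashed line is the median of all tested loci at -0.175, and the early flavonoid enzymes lie furthest to its left as a set, with a median of -2.45.

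Loci with interactions of size 1 or more also lay side by side. By the order of the locus numbers, 39 runs of 3 or more neighbours shared a sign, 16 positive and 23 negative, with 130 loci in all. The longest runs held 5 loci, and some rest on calls near the threshold: VIT_05s0049g00390 lost its call when any 1 of 10 libraries was left out, VIT_05s0049g00400 with any 1 of 8 and VIT_05s0049g00740 with any 1 of 5. The run from VIT_05s0062g01270 to VIT_05s0062g01310 had a median interaction of 3.49, and in it VIT_05s0062g01300 had 96.2, 116 and 92.4 FPKM in SG EC and 5.01, 9.16 and 3.98 in SG NEC, against 1.79, 0.407 and 2.24 in CS EC and 3.35, 12.4 and 9.3 in CS NEC. The runs from VIT_05s0049g00390 to VIT_05s0049g00430 and from VIT_05s0049g00690 to VIT_05s0049g00750 were negative, with medians of -1.96 and -2.43. In them 8 of 10 loci were lower in EC of both cultivars and more so in SG, such as VIT_05s0049g00730. It had 138, 36.2 and 70.2 FPKM in SG EC and 1720, 1340 and 1670 in SG NEC, against 228, 311 and 270 in CS EC and 1430, 704 and 1280 in CS NEC. The run from VIT_08s0007g07750 to VIT_08s0007g07780, with 4 loci, had the largest median, 6.93, and holds 3 of the loci given above for CS NEC. Another run of 4, from VIT_18s0117g00030 to VIT_18s0117g00060, was at 0.0275 FPKM or less in every CS EC and CS NEC library. It was at 0.0377 FPKM or less in every CS day 40 and anther library too. In this run VIT_18s0117g00040 had 48.1, 83.4 and 65.7 FPKM in SG EC and 3.21, 11.9 and 5.79 in SG NEC. It averaged 6.84 FPKM in SG day 40 callus and 18.1 in SG anthers. Neighbouring copies may share reads.

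Loci silent in 1 cultivar made up few of the interactions, although a larger share of them than of all tested loci had one. Among the 1263 positive ones, 18 were listed at 0 in all 12 CS libraries of the series and 4 in all 12 SG libraries. Among the 1914 negative ones, 15 were listed at 0 in all SG and 10 in all CS libraries. Of all tested loci, 64 were so in CS and 46 in SG. Under 0.1 FPKM in every library of a cultivar were 26 positive loci in CS and 10 in SG. Of negative loci 24 were so in CS and 26 in SG, and of all tested loci 103 and 81. An interaction of size 1 or more was spread over all levels: it was called positive or negative at 5.61% and 9.4% of 11939 loci whose highest group mean was 5 to 50 FPKM, and at 11% and 12.7% of the 355 loci at 500 FPKM or more. By the chromosome number in the identifier, the share of tested loci with such an interaction ran from 13% on chromosome 6 to 18.8% on chromosome 3.

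The 12 libraries outside the comparison gave a further view of the cultivar gaps. In callus at day 40, before calli were classed, SG exceeded CS by 1 or more on the log2 scale at 26.8% of the 1914 loci with a negative interaction and fell below it by as much at 6.53%. Among the 1263 loci with a positive interaction these shares were 8.23% and 28.7%, and over all tested loci 8.79% and 6.35%. The median SG minus CS difference at day 40 was 0.648 for the 874 negative loci whose gap was larger in NEC and 0.158 for the 1040 whose gap was larger in EC. For positive loci it was -0.605 for the 765 with the larger gap in NEC and -0.0492 for the 498 with the larger gap in EC. The medians at day 40 thus had the sign of the NEC gap, and were further from 0 in the sets whose gap was larger in NEC. In anthers the corresponding medians were 0.0739, -0.0617, -0.0455 and 0.124.

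**Figure D5:**
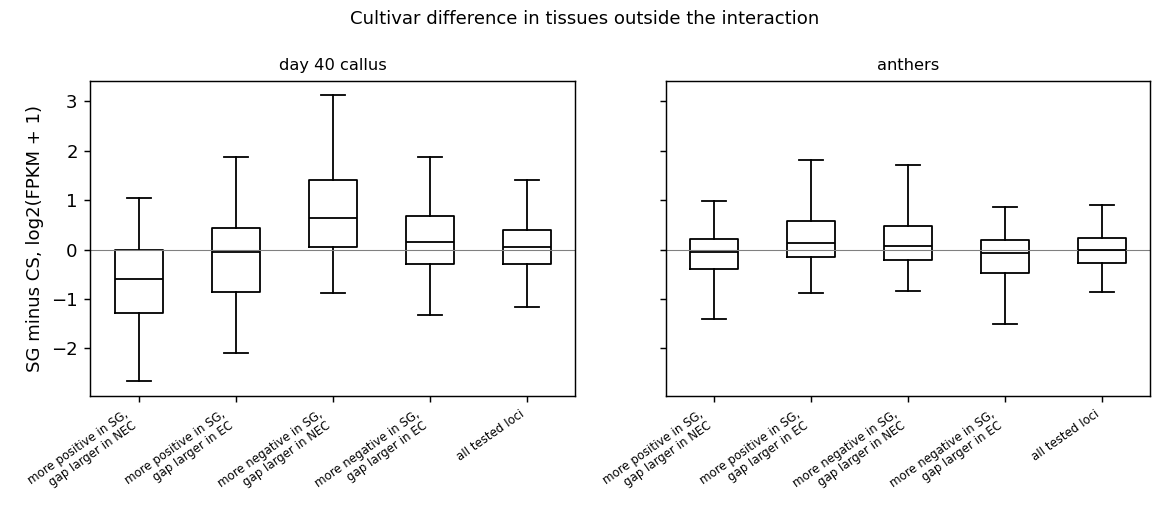
SG minus CS difference of log2(FPKM + 1) (y axis) in day 40 callus (left) and anthers (right) for loci with an interaction of size 1 or more, by its sign and by the callus type with the larger cultivar gap, and for all tested loci (x axis). Boxes are quartiles with the median, whiskers reach the 5th and 95th percentiles, and the day 40 medians of -0.605 and 0.648 belong to the sets with the larger gap in NEC.

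Among the 6 loci at which neither cultivar was called, 3 are named. VIT_12s0059g00500 had 4.59, 0.703 and 2.08 FPKM in SG EC and 2.79, 7.56 and 2.5 in SG NEC, against 8.19, 11.9 and 9.46 in CS EC and 4.17, 3.56 and 5.87 in CS NEC, with a limma adjusted p of 0.0497. VIT_18s0001g05030 and VIT_08s0007g02740 had an adjusted p of 0.0475 and 0.0253. All 3 lost the call without replicate 3 of both EC groups, at an adjusted p of 0.133, 0.146 and 0.118.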

How the data were processed

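The authors deposited a single table of FPKM values, with a column for each library. Per the submitters' processing notes they used CASAVA 1.8.2, TopHat2 2.0.9 and Cufflinks 2.1.1. Per the labels' protocols, non-directional TruSeq libraries were made from 2.5 µg of total RNA from about 100 mg of tissue. The sources used here name no genome build, annotation or scaling between libraries. Read totals are not known, so no counting interval is given. Reads from overlapping or antisense loci cannot be told apart in such libraries.

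The test was limma 3.58.1 (R 4.3.3) on log2(FPKM + 1), for loci that reached 1 FPKM in 3 of the 12 libraries. The fit had a mean per group, a trend of the spread with level and 8 residual degrees of freedom. Adjusted p is the Benjamini-Hochberg value over 20251 loci, and a call is an adjusted p under 0.05. Day 40 callus and anthers were left out of the fit because day 40 libraries varied less. Count models were not used, since FPKM values are not counts. Fold changes on this scale understate those of low loci. The fit was also run on simulated data, and the outcome is not reported here.

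Members, sets and alternatives were chosen with earlier results of these data known. Named loci were the 3 largest interactions in each kind of change with 5 FPKM or more in the highest group, and at most 4 members of each set, by smallest adjusted p. Loci with a library at 0 while another of its group was at 10 FPKM or more, among the 4 groups compared, were passed over, which removed 4 of 2524. Day 40 callus and anthers were not held to this. Runs of neighbours were taken by length, ties included, so that 10 runs were kept where 5 had been intended. Sets defined by words in gene descriptions were empty, since the identifiers carry none. Cell type markers were among these, so the callus labels are not checked against them.

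Other settings tried were no filter or a filter at 5 FPKM on average, 0.1 as pseudocount, a replicate block, all 24 libraries, 2 other scalings, robust moderation, and libraries left out. Leaving out replicate 3 of both EC groups was chosen after seeing the data.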

Additional observations from a re-analysis of the deposited data

Results flagged for a closer look

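The EC to NEC difference was tested directly for a difference between the cultivars, and 2951 loci passed with a positive and 6421 with a negative interaction. All named loci below passed that limma test, and the values are interactions on the log2(FPKM + 1) scale, SG minus CS.

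Among positive interactions, loci higher in EC of SG alone had 5.998 (VIT_14s0083g00680), 5.07 (VIT_00s0256g00030) and 4.68 (VIT_13s0147g00080). Loci higher in both and more so in SG had 3.82 (VIT_12s0059g00760), 3.34 (VIT_04s0008g02860) and 3.28 (VIT_11s0016g05330). Loci lower in both and more so in CS had 7.33 (VIT_08s0007g07760), 6.91 (VIT_08s0007g07770) and 6.15 (VIT_08s0007g08330). Loci lower in CS and not called in SG had 8.3 (VIT_05s0094g00350), 8.02 (VIT_01s0011g05110) and 6.95 (VIT_08s0007g07780). Loci higher in SG and lower in CS had 6.26 (VIT_11s0065g00050), 6.09 (VIT_12s0028g03120) and 5.85 (VIT_19s0090g01360).

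Among negative interactions, loci lower in both and more so in SG had -5.34 (VIT_01s0026g02370), -3.93 (VIT_13s0019g01380) and -3.88 (VIT_01s0026g02400). Loci lower in SG and not called in CS had -5.81 (VIT_14s0108g00200), -4.72 (VIT_14s0108g00240) and -4.68 (VIT_06s0004g05760). Loci higher in both and more so in CS had -3.65 (VIT_01s0011g04580), -3.57 (VIT_13s0074g00390) and -3.47 (VIT_18s0001g07640). Loci higher in CS and not called in SG had -10.73 (VIT_18s0001g06540), -5.6 (VIT_18s0166g00060) and -5.3 (VIT_17s0000g02700). Loci lower in SG and higher in CS had -5.66 (VIT_14s0128g00670), -4.85 (VIT_07s0129g00580) and -4.71 (VIT_06s0004g02020). The loci with neither cultivar called had -1.63 (VIT_12s0059g00500), -1.62 (VIT_18s0001g05030) and -1.42 (VIT_08s0007g02740).

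For the sets only the called members with the smallest adjusted p are listed, so their signs need not be those of the whole set. Among all tested regulators 4 were called negative and 2 positive, and the MADS-box interaction largest in size was -3.98 (VIT_18s0001g01760). Of the sets, flavonoid enzymes had -2.45 (VIT_13s0067g02870), -2.8 (VIT_14s0068g00920), -3.39 (VIT_02s0025g04720) and -1.7 (VIT_18s0001g12800), and the regulators 4.6 (VIT_02s0033g00390) and 3.1 (VIT_02s0033g00410). PR10 loci had 2.97 (VIT_05s0077g01690) and -3.51 (VIT_05s0077g01650), PR1 loci 5.07 (VIT_03s0088g00710) and 0.97 (VIT_03s0088g00910), thaumatin-like loci 2.31 (VIT_02s0025g04250) and -1.87 (VIT_02s0025g04290), and a second chitinase locus -2.21 (VIT_05s0094g00210). Stilbene synthase loci had 2.66 (VIT_16s0100g01130), -3.51 (VIT_16s0100g01100) and 2.36 (VIT_10s0042g00850). MADS-box loci had 3.54 (VIT_14s0083g01050) and 2.5 (VIT_12s0142g00360), and lipoxygenase loci 2.29 (VIT_06s0004g01510) and -1.68 (VIT_14s0128g00790).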

How the results depend on the processing

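Median-of-ratios scaling moved the interaction to 4449 positive and 4153 negative loci, by its construction near balance. A mean of 5 FPKM or more, with 14760 loci tested, left 719 positive and 1201 negative loci of size 1 or more. Without replicate 3 of both EC groups, with 6 residual degrees of freedom, 4228 loci had a negative interaction, and SG exceeded CS in EC at 2310 loci and lay below it at 3949. Asking for a size of 1 or more gave 1263 and 1914 loci for the interaction, 4711 higher and 3549 lower for EC against NEC in SG, 5594 and 3078 in CS, 937 and 1662 for SG against CS in EC, and 1291 and 1392 in NEC. Leaving out single replicates gave 2512 to 3155 positive and 5385 to 6886 negative interactions, 1185 to 1405 and 1722 to 2259 at a size of 1 or more, 9264 to 9768 higher and 6377 to 6817 lower in SG EC, 10408 to 10859 and 5560 to 5893 in CS EC, 3100 to 3882 and 5207 to 6688 for SG against CS in EC, and 5686 to 6786 and 3871 to 4597 in NEC. The replicate numbers showed no general pairing of the libraries, with correlations of deviations from -0.128 to 0.178. Of 18 such correlations 5 were highest with the same number. The 2 above 0.1 were between SG EC and CS EC, at 0.165 for replicate 1 and 0.178 for replicate 2. With the replicate block 2901 loci were positive and 6299 negative. Signs turned at 4 set members that were not called as deposited, and the cause was not tested. VIT_16s0100g01160 had -0.0599 with a pseudocount of 0.1. Over the left-out libraries VIT_16s0039g01130 ran from -0.35 to 1.84, VIT_16s0039g01320 from -0.75 to 1.39 and VIT_16s0039g01100 from -0.57 to 0.95. Their lowest values came without CS NEC replicate 3, where the last had a limma adjusted p of 0.0205. Read totals are unknown, so the precision at low levels is too.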

Other observations

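Loci passed over in naming, because a library was at 0 while another of its group was not, include 2 with an uneven group. VIT_16s0013g00920 was listed at 0 in SG EC, had 0, 0 and 112 FPKM in SG NEC and 206, 188 and 205 in CS EC, and was listed at 0 in CS NEC, day 40 callus and anthers. VIT_16s0022g00460 had 106, 99.9 and 79.2 FPKM in SG EC and was listed at 0 in SG NEC, with 0, 0 and 25.4 in CS EC and 0 in CS NEC. It was listed at 0 in day 40 callus, and had 78.2, 25.1 and 51.2 FPKM in SG anthers and 0 in CS anthers.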
